A study of Mus musculus with 24 samples.

Results

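mmu-miR-7a-5p and mmu-miR-7b-5p (mmu marks the mouse and is left out from here on), the 2 mature microRNAs of the mouse miR-7 family, were followed in lung small RNA after thoracic irradiation. They were picked out of 1950 mature miRNAs by name, after their levels at the latest time point had been seen to be higher in irradiated lungs. Their values at day 180 are therefore given as a description, with no test. The choice was of a late rise, so values of the earlier days may have had a part in it. The tests at those days carry that limit. C57BL/6 mice of 6 to 8 weeks received 15 Gy of X-rays to the whole thorax, or served as controls, and lungs were taken at day 14, day 90 and day 180. Each of the 6 groups (irradiated and control at each day) held 4 libraries, 24 in all. The labels name no genotype, sex or transgene. They leave it unsaid if each library is a separate animal. The p-values here set the difference between groups against the spread between these libraries, which may be technical.

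MicroRNAs are short RNAs that pair with messenger RNAs through their seed, the bases near the 5′ end, and lower the output of those messengers. Each is cut from a hairpin precursor whose arms are named 5p and 3p, and 1 arm usually accumulates far more than the other. miR-7 is best known from endocrine cells and neurons, such as pancreatic islets, the pituitary and the hypothalamus. Its described targets include the epidermal growth factor receptor, and a circular RNA of neurons, Cdr1as, carries many sites for it.

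The mature sequences are shown because the members differ so little that they share their predicted targets through the seed, while the counting has to tell them apart by few bases. They are RefSeq sequences of the mouse build GRCm38.p6, written 5′ to 3′, with the seed (bases 2 to 8) and base 10 in capitals.
miR-7a-5p: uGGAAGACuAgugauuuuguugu
miR-7b-5p: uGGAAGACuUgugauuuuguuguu
Over the 23 bases of miR-7a-5p the members differed by 1 substitution, A10U, counted from 1 at the 5′ end with the base of miR-7a-5p first, and miR-7b-5p was listed with 1 base more at its 3′ end (24 bases). Of 1679 mature names in the RefSeq table, these were the 2 that carried the seed GGAAGAC.

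3 hairpins give rise to the pair. Mir7-1 and Mir7-2 hold the same miR-7a-5p, so the 5p counts cannot say which of them it came from, whereas their 3p arms differ. The hairpins are shown with both mature arms in capitals.
Mir7-1: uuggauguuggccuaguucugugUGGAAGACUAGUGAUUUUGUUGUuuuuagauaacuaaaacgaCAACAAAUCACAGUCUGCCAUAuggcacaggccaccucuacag
Mir7-2: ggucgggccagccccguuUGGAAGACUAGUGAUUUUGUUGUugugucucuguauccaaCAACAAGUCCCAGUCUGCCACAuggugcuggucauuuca
Mir7b: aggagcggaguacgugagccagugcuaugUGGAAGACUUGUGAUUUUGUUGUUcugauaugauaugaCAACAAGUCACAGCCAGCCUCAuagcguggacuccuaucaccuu
Mir7-1 lies at chr13:58392779-58392886 on the minus strand (GRCm38.p6), inside Hnrnpk, a gene for an RNA-binding protein read from the same strand, and overlaps none of its annotated exons in GENCODE M21, so the position is intronic. Mir7-2 lies at chr7:78888277-78888373 on the plus strand, between genes, with Aen starting 7481 bases beyond it. Mir7b lies at chr17:56242988-56243098 on the plus strand, also between genes, 183 bases after the end of the lincRNA AC026385.1 on the same strand.
The 3p arms are shown because they report on single hairpins. Their bases 2 to 8 are in capitals.
miR-7a-1-3p: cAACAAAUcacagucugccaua
miR-7a-2-3p: cAACAAGUcccagucugccaca
miR-7b-3p: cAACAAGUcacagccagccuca
The 3p arm of Mir7-1 differed from that of Mir7-2 at 3 of 22 bases (A7G, A10C and U21C) and from that of Mir7b at 5 of 22.

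The libraries held 2832205 to 3695133 miRNA counts each. miR-126a-3p, an endothelial miRNA abundant in lung, had the highest count in all 24 libraries. At day 180 that count stayed between 111905 and 113233, although the totals ran from 2832205 to 3695133. Scaled to the total, such a count gives a higher level where the total is lower. Why the count varied so little was not tested, and this limits how the endothelial list below can be read. Levels are CPM, a count scaled to the miRNA total of its library with TMM scaling inside a day, and the 3 days were deposited as separate tables, so levels set across days are not tested. Irradiated library 1 of day 180 had the lowest total of all libraries, 2832205, and a median Spearman correlation with the other 7 libraries of its day of 0.914, against 0.940 to 0.962 for those 7. Fold changes at day 180 of the miR-7 arms, and of the miRNAs of other lists where they move, are therefore also given without it, for the arm miR-7a-1-3p and the lists as a choice made after seeing the data.

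miR-7a-5p was the abundant member and miR-7b-5p the scarce one in control lungs. Across the 12 control libraries miR-7a-5p lay between 535 and 981 CPM, with a median of 797 CPM. miR-7b-5p lay between 20.1 and 120 CPM, with a median of 58.6 CPM. The scarce member thus varied more among controls than the abundant one. By mean level over the 4 control libraries of day 180, miR-7a-5p ranked 106th and miR-7b-5p 233rd of 552 miRNAs tested.

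**Figure D1:**
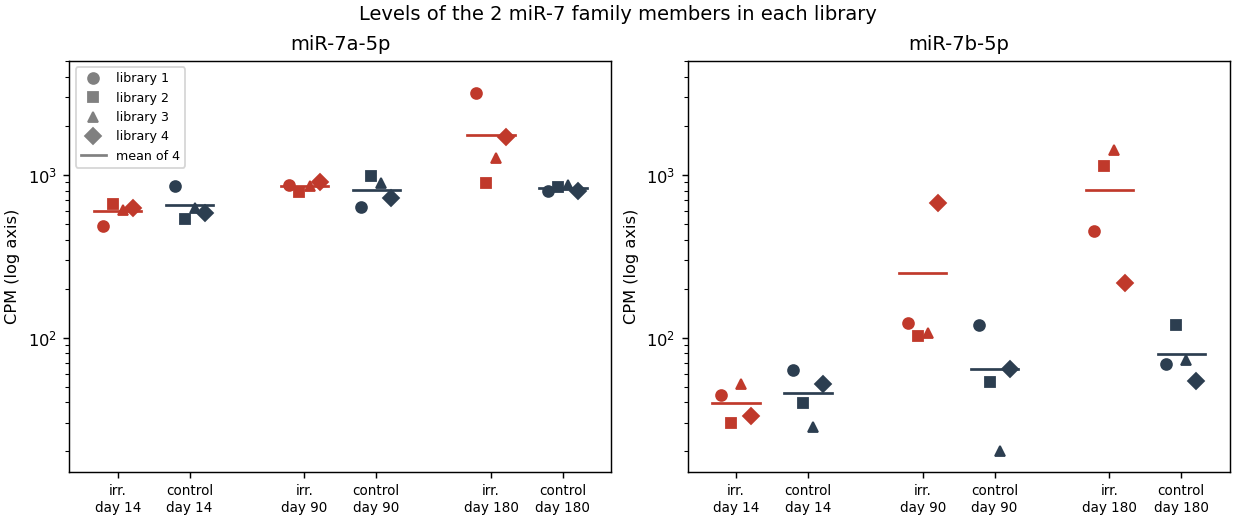
CPM on a log axis of miR-7a-5p (left) and miR-7b-5p (right) in each of the 24 libraries, irradiated beside control at each day, with a line at the mean of 4. The groups mix at day 14, 1 irradiated library of day 90 stands at 669 CPM of miR-7b-5p, and at day 180 all 4 irradiated libraries lie above the controls for both members.

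At day 14 neither member differed beyond the spread between libraries. miR-7a-5p stood at 488, 666, 610 and 629 CPM in irradiated lungs, against 852, 535, 628 and 580 CPM in control lungs. The groups overlapped, with the highest value in a control. Its log2 fold change, irradiated over control, was -0.12 ± 0.18 (SE, n = 4 each), with an adjusted p of 0.948 by edgeR's quasi-likelihood test with Benjamini-Hochberg adjustment over 499 miRNAs. miR-7b-5p stood at 44.4, 30.1, 51.8 and 33.2 CPM in irradiated lungs, against 63.0, 39.7, 28.3 and 51.6 CPM in control lungs. Both ends of the range were in controls. Its log2 fold change was -0.20 ± 0.29 (SE; edgeR adjusted p = 0.940). The two-sided exact permutation test over libraries gave p = 0.629 for each member. No miRNA passed the threshold of 0.05 at this day (0% of 499; 27 had an unadjusted p below 0.05, and DESeq2 called 1), and 2.4% had groups that did not overlap, in either direction. Without control library 1 the sign of both fold changes turned, to 0.063 for miR-7a-5p and 0.015 for miR-7b-5p.

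At day 90 miR-7a-5p was level between the groups, while miR-7b-5p was higher on average in irradiated lungs without passing the test. miR-7a-5p stood at 865, 781, 852 and 905 CPM in irradiated lungs, against 636, 981, 896 and 720 CPM in control lungs. All irradiated values fell inside the range of the controls. Its log2 fold change was 0.07 ± 0.17 (SE, n = 4 each; edgeR adjusted p = 0.944 over 558 miRNAs; two-sided exact permutation p = 0.543).

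miR-7b-5p stood at 124, 102, 106 and 669 CPM in irradiated lungs of day 90, against 120, 53.4, 20.1 and 64.1 CPM in control lungs. 2 of the 4 irradiated libraries lay above every control and the other 2 below the highest control, so the groups overlapped. The counts behind these levels were 435, 355, 357 and 2616 in irradiated lungs and 415, 181, 67 and 250 in control lungs. The log2 fold change was 1.96 ± 0.72 (SE, n = 4 each; edgeR adjusted p = 0.281), the 5th highest of 558. The two-sided exact permutation test gave p = 0.0857, where the smallest p that 70 splits allow is 0.0286. In the same comparison 2 miRNAs were called (0.358% of 558), miR-133b-3p and miR-122-3p, both higher in irradiated lungs, and 7.17% had groups that did not overlap.

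The size of the difference at day 90 rested on irradiated library 4. That library held 10.4 times the control mean of miR-7b-5p, and the other 3 held 1.59 to 1.92 times it. Without it the irradiated mean was 111 ± 11.3 CPM (SD, n = 3), and the log2 fold change was 0.76 (edgeR adjusted p = 0.589). miR-7a-5p in library 4 was 905 CPM, within the range of the controls, so the high value concerned 1 member of the pair alone.

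The radiation effect on the members was then compared between day 90 and day 14 in 1 fit of those 16 libraries. This contrast leaves out the day 180 libraries but is not free of the choice of members for a late rise. The difference of the log2 fold changes, day 90 minus day 14, was 0.21 ± 0.24 (SE) for miR-7a-5p (edgeR adjusted p = 0.996 over 588 miRNAs). For miR-7b-5p it was 2.17 ± 0.85 (SE; edgeR adjusted p = 0.679), and 0.94 without irradiated library 4 of day 90 (edgeR adjusted p = 0.824). No miRNA passed (0% of 588), 33 had an unadjusted p below 0.05, and DESeq2 was not run on this contrast.

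At day 180, the contrast the members were chosen on, every irradiated library held more of both members than every control library. miR-7a-5p stood at 3186, 887, 1271 and 1704 CPM in irradiated lungs, against 801, 844, 864 and 792 CPM in control lungs. The irradiated values spread 3.59-fold from lowest to highest and the control values 1.09-fold, and irradiated library 2 lay just above the controls. Irradiated lungs averaged 1762 ± 1006 CPM, against 825 ± 34.4 CPM in controls (SD, n = 4 each), a log2 fold change of 1.09 ± 0.36 (SE), the 44th highest of 552. Without irradiated library 1 the irradiated mean was 1287 ± 409 CPM (SD, n = 3) and the log2 fold change 0.63.

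miR-7b-5p stood at 454, 1141, 1416 and 216 CPM in irradiated lungs of day 180, against 68.5, 120, 73.4 and 54.1 CPM in control lungs. The lowest irradiated library held 2.73 times the control mean and the highest 17.9 times. Irradiated lungs averaged 807 ± 565 CPM, against 79.0 ± 28.6 CPM in controls (SD, n = 4 each). The log2 fold change of 3.35 ± 0.59 (SE), about 10.2-fold, was the highest of the 552 miRNAs tested, and it was 3.54 without irradiated library 1. In this comparison no miRNA passed the threshold in edgeR (0% of 552; 101 had an unadjusted p below 0.05, and DESeq2 called 28), and 5.43% of miRNAs had all irradiated libraries above all controls, a share given as background only because the same contrast chose the members.

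**Figure D2:**
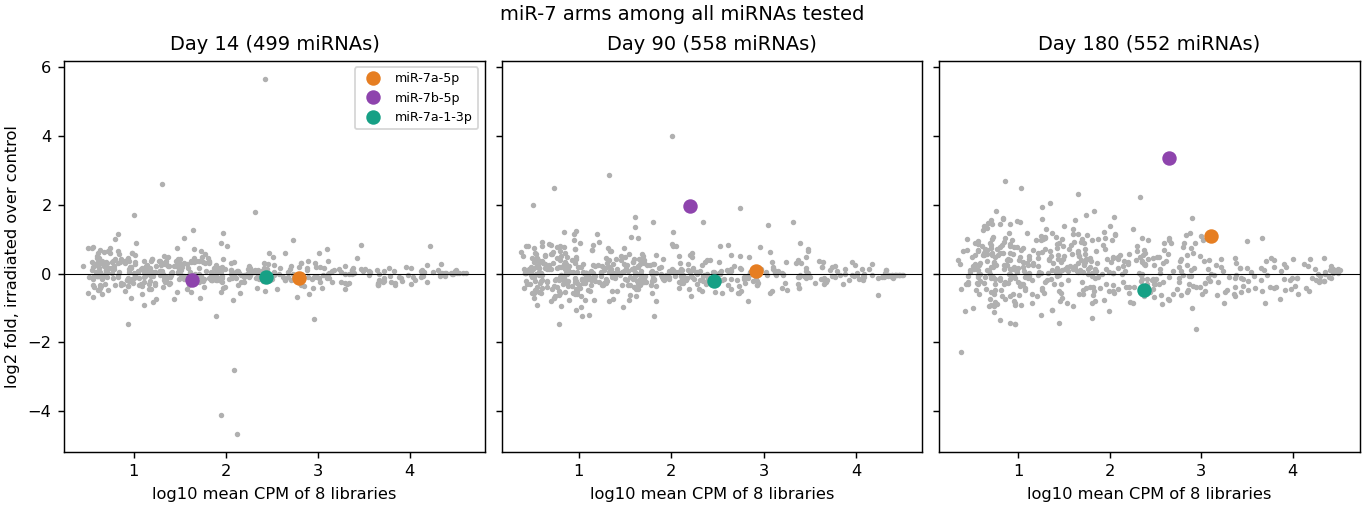
Log2 fold change, irradiated over control, against the log10 of the mean CPM of 8 libraries for every miRNA tested at day 14, day 90 and day 180, with the miR-7 arms in colour. miR-7b-5p sits at -0.20, 1.96 and 3.35 on the 3 days, miR-7a-5p at -0.12, 0.07 and 1.09, and the 3p arm of Mir7-1 at -0.09, -0.22 and -0.48.

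By mean level, miR-7b-5p was highest in irradiated lungs of day 180, next in irradiated lungs of day 90 and lower in the other 4 groups. Among those 4 the ranges overlapped, except that irradiated lungs of day 14 (at most 51.8 CPM) lay below control lungs of day 180 (at least 54.1 CPM). Its ranges in the irradiated groups of day 180 and day 90 overlapped as well (216 to 1416 CPM and 102 to 669 CPM). For miR-7a-5p the irradiated group of day 180 was highest, and its lowest library, at 887 CPM, lay within the ranges of both day 90 groups. The 2 groups of day 90 and the controls of day 180 overlapped in range, and by mean both day 14 groups were lowest.

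The members were not highest in the same irradiated lungs, although at day 180 all 4 irradiated libraries exceeded every control for both. At day 180 miR-7a-5p was highest in irradiated libraries 1 and 4, and miR-7b-5p was lowest in libraries 4 and 1 of that group. Libraries 2 and 3 held the most miR-7b-5p, and miR-7a-5p there was 1.07 and 1.54 times its control mean. The sum of both members was more even, at 3640, 2028, 2687 and 1920 CPM in irradiated lungs, against 869, 964, 938 and 846 CPM in control lungs. The lowest irradiated sum lay above the highest control sum. That was fixed in advance, because both members were chosen as higher at this day and each exceeded every control in every irradiated library.

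The composition of the pair is computed from the same counts, so it restates this order and is no further support. miR-7b-5p made up 12.5%, 56.3%, 52.7% and 11.2% of the pair's counts in irradiated libraries of day 180, against 7.89%, 12.5%, 7.83% and 6.39% in control libraries. The Wilson 95% intervals of the 2 high shares were 55.1 to 57.4% and 51.8 to 53.7%, and they cover counting error only. These 2 libraries were the ones of 24 in which miR-7b-5p outnumbered miR-7a-5p. The share in the other 2 irradiated libraries was close to the highest control share of that day.

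At day 90 the share was 12.5%, 11.6%, 11.1% and 42.5% in irradiated libraries, against 15.9%, 5.17%, 2.19% and 8.18% in control libraries. Library 4 stood alone, with a Wilson 95% interval of 41.3 to 43.8% on 6151 counts of the pair. At day 14 the share ran from 4.32% to 8.33% in irradiated libraries and from 4.31% to 8.18% in control libraries, which overlapped fully. Apart from the irradiated libraries of day 180 and library 4 of day 90, the share lay between 2.19% and 15.9% in all 19 libraries. With 1 substitution between the members, the counting could move reads from one to the other. The share would then depend on the counting, and its part in these values was not tested.

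**Figure D3:**
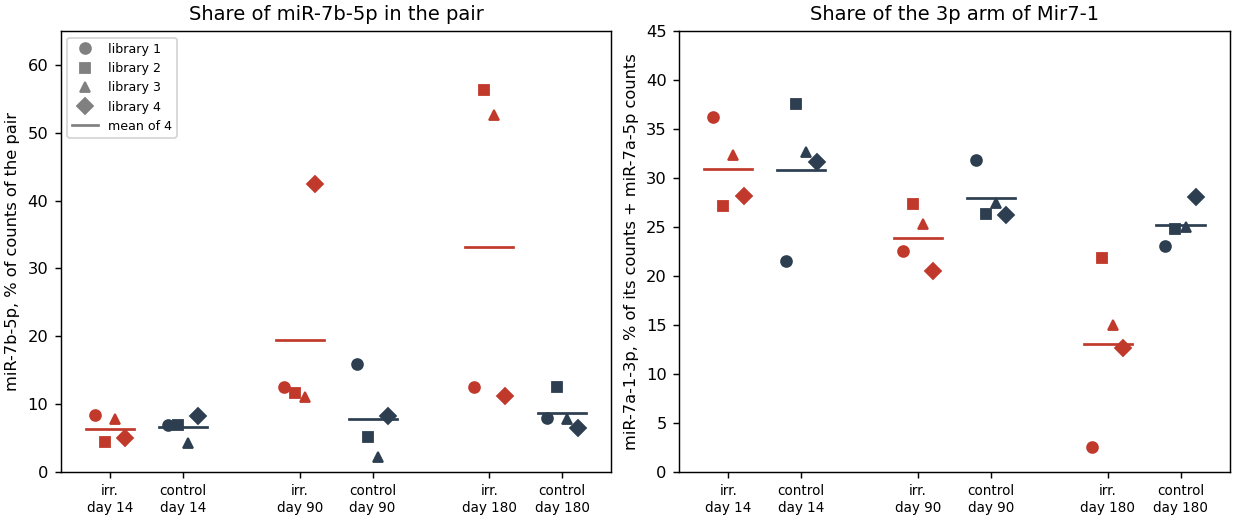
Left, miR-7b-5p as a percentage of the counts of the pair, and right, miR-7a-1-3p as a percentage of the counts of miR-7a-5p and miR-7a-1-3p together, in each library with a line at the mean of 4. On the left 3 irradiated libraries stand above 40%, and on the right the 4 irradiated libraries of day 180 lie below the controls of that day, library 1 lowest at 2.57%.

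The 3p arm of Mir7-1 was the other miR-7 arm with enough counts to test, and it did not go up with its 5p partner. At day 180 miR-7a-1-3p stood at 84.1, 248, 224 and 246 CPM in irradiated lungs, against 240, 279, 288 and 310 CPM in control lungs. Irradiated libraries 1 and 3 lay below every control, and the other 2 inside the range of the controls. Its log2 fold change was -0.48 ± 0.35 (SE), given with no test because the 5p arm of this hairpin was chosen on the same contrast. It rested largely on library 1: without it the irradiated mean was 240 ± 13.4 CPM (SD, n = 3), against 279 ± 29.0 CPM in controls (SD, n = 4), and the log2 fold change -0.23 ± 0.17 (SE). Library 1, with 204 counts of this arm, was the library with the most miR-7a-5p, 7724 counts.

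As a share of both arms of Mir7-1, miR-7a-1-3p made up 2.57%, 21.9%, 15.0% and 12.6% in irradiated libraries of day 180, against 23.1%, 24.8%, 25.0% and 28.1% in control libraries. All 4 irradiated libraries lay below all 4 controls. This is no separate result, because miR-7a-5p makes up most of these counts and was chosen for its rise at this day. The share falls with that rise unless the 3p arm rises as much. Because miR-7a-5p is also cut from Mir7-2, this share mixes both hairpins. At day 90 miR-7a-1-3p stood at 252, 294, 288 and 233 CPM in irradiated lungs, against 297, 351, 339 and 256 CPM in control lungs, with a log2 fold change of -0.22 ± 0.18 (SE; edgeR adjusted p = 0.683; two-sided exact permutation p = 0.114). At day 14 its log2 fold change was -0.09 ± 0.16 (SE; edgeR adjusted p = 0.978), and the groups overlapped at both days.

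The arm that would mark Mir7-2, miR-7a-2-3p, had 0 to 2 counts in every library, too few to test. At day 180 it had 0 counts in all 4 irradiated libraries and 1 in the 4 controls together. These counts cannot show whether Mir7-2 contributed to the higher miR-7a-5p.

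miR-7b-3p comes from Mir7b alone and was close to the limit of detection as well. At day 180 it had 0, 11, 27 and 5 counts in irradiated libraries, against 0, 0, 0 and 1 in control libraries. The libraries with the most counts of this arm, 3 and 2, were those with the most miR-7b-5p. Library 1 had 0 counts beside 1101 of miR-7b-5p, which allows up to 1.24 CPM, and the 27 counts of library 3 came to 6.83 CPM. As a share of both arms of Mir7b, miR-7b-3p was 0.272%, 0.480% and 0.635% in irradiated libraries 2, 3 and 4, with Wilson 95% intervals that overlapped (0.152 to 0.486%, 0.330 to 0.697% and 0.272 to 1.48%), and a count of 0 allows a share of up to 0.272% in library 1. At day 90 its counts were 1, 3, 0 and 4 in irradiated libraries, against 6, 1, 0 and 0 in control libraries. The irradiated library of day 90 with 2616 counts of miR-7b-5p thus had 4 of the 3p arm.

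To set the pair beside the cell types it is known from, a list of miRNAs drawn up for endocrine and neuroendocrine cells was looked at. How particular each is to such cells was not tested, so the list's median does not measure these cells. This list and those below were drawn up with earlier results of these data known, and the p-values of their miRNAs carry that limit. The list counts both arms of miR-335, with log2 fold changes of 1.28 (3p) and 0.96 (5p) at day 180. 11 of the 12 on that list were in the day 180 table and 9 were tested. None was called by edgeR at any day, with 1, 1 and 2 of the 9 at an unadjusted p below 0.05 at day 14, 90 and 180, and DESeq2 called 0, 0 and 1. Over all miRNAs tested, 5.41%, 12.7% and 18.3% had an unadjusted p below 0.05 on those days, and DESeq2 called 0.200%, 3.41% and 5.07%. Their median log2 fold change was -0.04, 0.19 and 0.65 at day 14, 90 and 180, and that of all miRNAs tested was 0.01, -0.02 and 0.13. The list's summed level ran from 7944 to 12704 CPM in irradiated libraries of day 180 and from 9102 to 11278 CPM in control libraries, so the sums overlapped. Without irradiated library 1 the median at day 180 was 0.76, against 0.00 for all miRNAs, and edgeR called 0 in both. Then 7 of the 9 and 142 of all 552 had an unadjusted p below 0.05. The 7 did not all go up, as they included miR-375-3p, which was lower in irradiated lungs (log2 fold change -0.66). None of the 9 had a day 180 log2 fold change as large as that of miR-7b-5p. That was fixed in advance, because miR-7b-5p had the highest of all 552 miRNAs tested.

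miR-375-3p, the miRNA most closely tied to islet and neuroendocrine cells, stood at 10494, 2967, 4619 and 2575 CPM in irradiated lungs of day 180, against 4377, 6159, 5361 and 5383 CPM in control lungs. It was highest in irradiated library 1 and below every control in libraries 2 and 4, and its log2 fold change was -0.04 ± 0.40 (SE; edgeR adjusted p = 0.967), and -0.66 ± 0.22 without library 1 (edgeR adjusted p = 0.114). miR-671-5p, which directs the cutting of Cdr1as, stood at 556, 151, 165 and 101 CPM in irradiated lungs, against 187, 151, 144 and 135 CPM in control lungs (log2 fold change 0.65 ± 0.50, edgeR adjusted p = 0.496). It too was above the controls in library 1 alone, without which its log2 fold change was -0.17 ± 0.23 (edgeR adjusted p = 0.659). Cdr1as itself is too long for libraries of this size and was not measured.

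miR-184-3p had the largest log2 fold change of the list at day 180. It stood at 63.5, 29.4, 74.3 and 132 CPM in irradiated lungs, against 11.7, 23.2, 7.57 and 17.3 CPM in control lungs. The groups did not overlap, and the log2 fold change was 2.32 ± 0.50 (SE; edgeR adjusted p = 0.0997, DESeq2 adjusted p = 0.000495). miR-129-5p (1.49 ± 0.58, adjusted p = 0.259) and miR-335-3p (1.28 ± 0.62, adjusted p = 0.316) had positive values by edgeR that missed the threshold. miR-335-3p was highest in irradiated library 4, at 585 CPM, and lowest of all 8 in library 1, at 43.3 CPM. Without library 1 the edgeR adjusted p was 0.0554 for miR-184-3p (log2 fold change 2.38), 0.158 for miR-129-5p (1.61) and 0.0649 for miR-335-3p (1.62).

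The neural list had 13 miRNAs, all in the day 180 table, of which 12 were tested there, 12 at day 90 and 10 at day 14. edgeR called 0 at every day (0, 1 and 4 had an unadjusted p below 0.05 at day 14, 90 and 180, and DESeq2 called 0, 0 and 1), beside the shares over all miRNAs given above. The median log2 fold change was 0.19, 0.01 and 0.56, and 0.30 at day 180 without irradiated library 1. At day 180, 8 of the 12 were above 0 and 4 below 0, where 58.9% of all miRNAs were above 0. Those below 0 were miR-219a-5p (-0.85), miR-338-3p (-0.59), miR-128-3p (-0.21) and miR-153-3p (-0.15). Of these, miR-338-3p was among the 4 at an unadjusted p below 0.05. The list's summed level at day 180 ran from 5986 to 10227 CPM in irradiated libraries and from 6951 to 7673 CPM in control libraries. miR-124-3p, the best known miRNA of neurons, stood at 36.3, 49.2, 42.7 and 14.9 CPM in irradiated lungs of day 180, against 9.83, 7.74, 4.95 and 12.1 CPM in control lungs. Libraries 1 to 3 held several times the control level and library 4 a little more than the controls, a log2 fold change of 2.05 ± 0.43 (SE; edgeR adjusted p = 0.0997, DESeq2 adjusted p = 0.000495). miR-212-3p (1.54 ± 0.75, edgeR adjusted p = 0.312) and miR-132-3p (1.04 ± 0.63, edgeR adjusted p = 0.414), products of 1 cluster induced by neuronal activity, were both lowest in irradiated library 1 and highest in library 4. Without library 1 the edgeR adjusted p was 0.0554 for miR-124-3p (log2 fold change 2.03), 0.0554 for miR-212-3p (1.92) and 0.0573 for miR-132-3p (1.39). miR-9-3p had a log2 fold change of 1.30 ± 0.56 (SE; edgeR adjusted p = 0.264), and 0.65 ± 0.44 without library 1 (edgeR adjusted p = 0.374).

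**Figure D4:**
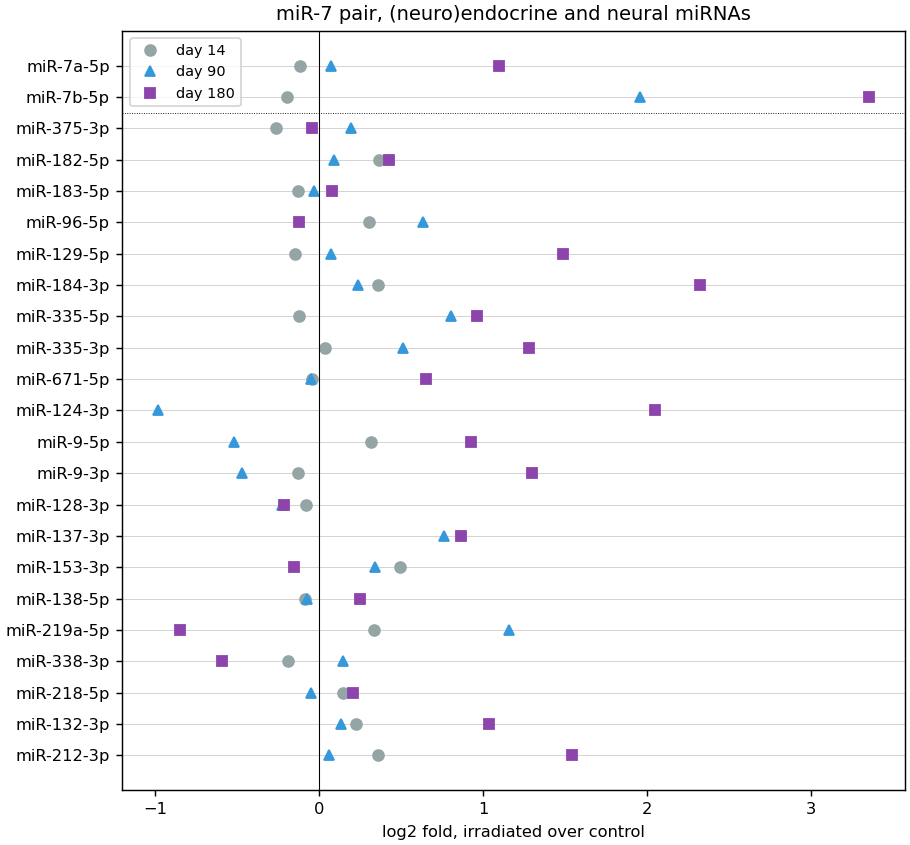
Log2 fold change, irradiated over control, at day 14 (circles), day 90 (triangles) and day 180 (squares) for the miR-7 pair above the dotted line and for the tested miRNAs of the endocrine and neural lists under it. miR-7b-5p, chosen on day 180 and highest of all 552 miRNAs tested there, lies at 3.35. The next largest day 180 values of those plotted are miR-184-3p at 2.32 and miR-124-3p at 2.05.

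Lists for other cells that lung tissue can hold were read in the same libraries. In bulk tissue, a change in the number of cells of a type and a change in RNA per cell cannot be told apart. The 3 pancreatic miRNAs, defining markers of the exocrine pancreas, summed to at most 3.79 CPM in irradiated libraries of day 180 and 0.928 CPM in control libraries. The 6 inflammatory miRNAs had a median log2 fold change of 1.07 at day 180, with 5 above 0, 5 at an unadjusted p below 0.05 and 0 called by edgeR, while DESeq2 called 2 (miR-21a-3p and miR-147-3p). Over all 552 miRNAs 58.9% were above 0, 18.3% had an unadjusted p below 0.05 and DESeq2 called 5.07%. Without irradiated library 1 the list's median was 1.24, with 5 of 6 above 0 and 5 of 6 at an unadjusted p below 0.05. Their summed level ran from 36802 to 46639 CPM in irradiated libraries and from 30980 to 35118 CPM in control libraries, without overlap. Of that sum miR-21a-5p alone gave 21719 to 28901 CPM in irradiated libraries and 17388 to 20211 CPM in control libraries. Its log2 fold change was 0.44, so the sum says little about the scarcer miRNAs of the list. In the inflammatory list, miR-155-5p, a miRNA of activated immune cells, stood at 640, 535, 964 and 2014 CPM in irradiated lungs, against 493, 493, 518 and 315 CPM in control lungs (log2 fold change 1.19 ± 0.42, edgeR adjusted p = 0.259). It was highest in library 4, where miR-7b-5p was lowest. The part of these cells in the miR-7 levels was not tested.

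The epithelial list (median log2 fold change -0.08, 2 of 5 above 0), the ciliated cell list (-0.16, 2 of 6), the lymphocyte list (-0.09, 2 of 5), the myeloid list (0.16, 2 of 4), the endothelial list (-0.01, 1 of 2), the stratified epithelium list (-0.59, 0 of 2) and the striated muscle list (-0.65, 2 of 6) had no miRNA called by edgeR or DESeq2 at day 180. Without irradiated library 1 the medians were -0.46, -0.33, -0.20, 0.07, -0.12, -0.72 and -1.0 in the same order, and edgeR again called 0 in these lists. In that order, 3 of 5, 0 of 6, 1 of 5, 1 of 4, 0 of 2, 2 of 2 and 2 of 6 then had an unadjusted p below 0.05. At day 90 the striated muscle miRNAs, which mark heart and skeletal muscle, had a median log2 fold change of 1.40, with 7 of 7 above 0, 1 called by edgeR (miR-133b-3p) and 3 by DESeq2, where 48.0% of all 558 were above 0, edgeR called 0.358% and DESeq2 3.41%. Their summed level at day 90 ran from 978 to 3918 CPM in irradiated libraries and from 371 to 1301 CPM in control libraries, and its part in the miR-7b-5p values of that day was not tested. Other lists also went one way at day 90. The lymphocyte list (median -0.57) had 5 of 5 below 0, and DESeq2 called 2. The ciliated cell list (0.36) had 6 of 6 above 0, and DESeq2 called 1. The epithelial list (0.14) had 5 of 5 above 0, and DESeq2 called 0. In these lists edgeR called 0. Of the 5 epithelial miRNAs, 3 were above the controls in irradiated library 1 of day 180. They were miR-200c-3p at 21836 CPM, miR-429-3p at 26229 CPM and miR-200b-3p at 7398 CPM, against at most 12426, 14982 and 4004 CPM in control libraries. miR-200a-3p and miR-141-3p were inside the control range there, at 10202 CPM against 8512 to 10526 CPM and at 2996 CPM against 2350 to 3639 CPM. The library's levels of miR-7a-5p, miR-375-3p and miR-671-5p were likewise the highest of day 180, and their relation was not tested.

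Last, the miRNAs that varied most like each member over the 24 libraries were found by Pearson's r of log2 CPM after removing the mean of each day, among 480 miRNAs tested at all 3 days. This is a description, since the libraries share treatment, depth and scaling. miR-7a-5p varied most like miR-362-5p (r = 0.84), miR-1843b-5p (0.82), miR-127-3p (0.81), miR-330-5p (0.81) and miR-98-5p (0.81). Within day 180 all 5 were highest in irradiated library 1, as miR-7a-5p was, and without that library their r fell to between 0.45 and 0.63 and none remained among the 5 most alike.

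miR-7b-5p varied most like miR-204-5p (r = 0.70), miR-345-5p (0.64), miR-196b-5p (0.60), miR-21a-5p (0.59) and miR-369-5p (0.59). miR-204-5p stood at 93.2, 165, 237 and 78.4 CPM in irradiated lungs of day 180, against 77.8 to 118 CPM in control lungs. Like miR-7b-5p it was highest in libraries 3 and 2. Without irradiated library 1 its r was 0.74, and 3 of the 5 were again among the 5 most alike.

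The members were not close to each other by this measure. Their r was 0.32, which placed miR-7b-5p 107th for miR-7a-5p and miR-7a-5p 72nd for miR-7b-5p. Within days it was 0.22 at day 14, -0.04 at day 90 and 0.43 at day 180 over 8 libraries each. miR-7a-1-3p had an r of -0.78 with miR-7a-5p, its partner arm, and of -0.32 without irradiated library 1 of day 180.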

How the data were processed

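Small RNA of 18 to 30 bases was sequenced from 24 lung libraries. The authors deposited a table per day with a count per mature miRNA and library, a raw whole number, and an RPM value, that count scaled to a library total, per the file headers. The authors' group means of counts, a score here, were deposited too and not used. Per the submitters' processing notes, Bowtie2 (no version) and GRCm38.p6 were used. How reads that match both members were assigned, and any use of molecular identifiers, are not given in the sources used here. Neither member nor miR-7a-1-3p shared its counts with another row.

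Each day was fitted alone with edgeR 4.0.16 (R 4.3.3): filterByExpr, TMM, a legacy quasi-likelihood fit and test, and Benjamini-Hochberg adjustment at 0.05 (499, 558 and 552 of 1657, 1707 and 1767 miRNAs). The SE was derived from the fold change and F. log2 CPM used a prior count of 2. The exact permutation test was two-sided, on the difference of mean log2 CPM. In data simulated from these libraries, 96.8%, 98.9% and 89.4% of 4-fold changes were recovered at day 14, 90 and 180. There 95, 93 and 94 of 486, 538 and 527 miRNAs tested changed 4-fold and others less. No library was made to deviate from its group, and false calls numbered 6, 6 and 2. With so many changes the adjustment is looser, so these shares are not the power of the tests on the real libraries. Same-numbered libraries deviated together at day 14 (r = 0.17 to 0.47), the pairing coming from the label numbers. Alternatives used DESeq2 1.42.0 and limma 3.58.1 among others. Intervals are Wilson 95%, and the limit for a count of 0 is 3 counts. Sequences matched RefSeq by name for all 5 arms.

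The members and lists were chosen with earlier results of these data known. Named were the miR-7 arms, up to 4 tested miRNAs of a list with the largest fold change at day 180 (the minor lists are given mostly by counts), miR-375-3p and miR-671-5p always, and the 5 miRNAs most like each member.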

Additional observations from a re-analysis of the deposited data

Results flagged for a closer look

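In 3 of 24 groups of 4 values (CPM of miR-7a-5p, miR-7b-5p and miR-7a-1-3p and the share of miR-7b-5p, in 6 groups), 1 library lay far from the others. Its gap to the next, divided by the range of the group, passed Dixon's 95% critical value. Chance gives this in about 1 of 20 groups that are independent and normally distributed. The share of miR-7b-5p uses the counts behind its CPM, so these groups are not independent and 3 of 24 cannot be set against that rate. The first 2 of the 3 concern irradiated library 4 of day 90 and rest on the same counts. There miR-7b-5p stood at 669 CPM beside 102 to 124 CPM (ratio 0.963) and made up 42.5% of the pair beside 11.1 to 12.5% (ratio 0.954). The third was irradiated library 1 of day 180, where miR-7a-1-3p stood at 84.1 CPM beside 224 to 248 CPM (ratio 0.853).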

How the results depend on the processing

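The fold changes of the members at day 180 kept their direction under all 18 alternatives, between 0.58 and 1.31 (log2) for miR-7a-5p and between 2.93 and 3.67 for miR-7b-5p; leaving out 1 library gave 0.63 to 1.31 and 2.93 to 3.67. Without irradiated library 1, an alternative chosen for other miRNAs after seeing the data, miR-671-5p turned to -0.17 and miR-429-3p to -0.16. At day 14 leaving out 1 library gave -0.18 to 0.063 for miR-7a-5p and -0.36 to 0.015 for miR-7b-5p, positive without control library 1. At day 90 miR-7a-5p was -0.028 with library weights in limma-voom, -0.042 and -0.00049 when control library 1 or 4 was left out, and at most 0.16. miR-7b-5p at day 90 ran from 0.76 to 2.44 without 1 library (edgeR adjusted p 0.244 to 0.589) and was called with no filter on low counts (1.95, edgeR adjusted p = 0.00251); the cause was not tested. The difference day 90 minus day 14 was not called under any of its 19 alternatives (0.09 to 0.32 for miR-7a-5p, 0.94 to 2.67 for miR-7b-5p). With the replicate block, the fold changes were 0.09 and 1.68 at day 90 and 0.93 and 3.06 at day 180, and no call of a member changed at day 14 or day 90. Same-numbered libraries did not deviate together at day 90 (r = -0.22 to 0.36) or day 180 (-0.36 to -0.09). The irradiated library of the same number was the best match for 2 of 4 control libraries at day 90 and 0 of 4 at day 180. The count of miRNAs called moved most: at day 14, against 0, it was 7 with no filter, 1 in DESeq2, 1 in the fit of all 24 libraries and 0 to 1 without 1 library. At day 90, against 2, it was 5 with upper-quartile scaling, 18 with no filter, 0 with a mean of at least 10 CPM, 19 in DESeq2, 6 with library weights, 0 in the fit of all libraries, 0 with the replicate block and 0 to 7 without 1 library. At day 180, against 0, it was 18 with no filter, 28 in DESeq2, 44 with library weights, 32 in the fit of all libraries and 0 to 5 without 1 library. For day 90 minus day 14 it was 1 with the replicate block, against 0. The cause of these moves was not tested. Of the 5 miRNAs most like miR-7a-5p, 1 remained by Spearman's rho and 0 without irradiated library 1 of day 180; for miR-7b-5p these were 1 and 3. Shares from the deposited RPM values did not differ beyond rounding. Counts of 0 to 27 limit what the 3p arms of Mir7-2 and Mir7b can show.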
